A study of Mus musculus with 16 samples.

Results

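The 10 genes *Stmn2*, *Stmn3*, *Gap43*, *Tubb3*, *Fez1*, *Map2*, *Mapt*, *Nefl*, *Nefm* and *Ina* encode proteins of the neuronal cytoskeleton and of axon growth. Chromatin accessibility around them was compared between 2 cell populations of mouse small cell lung cancer (SCLC). Differentially accessible ATAC-seq peaks were allotted by distance, from the centre of the peak to the closest transcription start site of a protein-coding gene, which gave these genes 71 of 80367 listed peaks. They are 10 of 21924 protein-coding genes in the annotation, of which 14591 received at least 1 listed peak.

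Lung tumors were induced in mice homozygous for floxed alleles of *Rb*, *p53* and *p130* and heterozygous for *Hes1* GFP (*TKO*;*Hes1* GFP/+) by Ad-CMV-Cre, an adenovirus that expresses Cre in any cell type it infects, and were collected several months later. Both groups of cells therefore came from tumors with the same 3 deleted genes and carried the same GFP reporter at 1 *Hes1* allele. CD24-positive cells negative for CD45, CD31 and TER-119 were sorted from the pooled tumors of each mouse into GFP high cells, which have high *Hes1* promoter activity and are non-neuroendocrine (non-NE), and GFP neg cells, which are neuroendocrine (NE). There were 4 pairs of libraries from 3 mice, with 1 pair being a technical replicate, and each of the 8 libraries was sequenced on 2 lanes. ATAC-seq reads out open chromatin as sites where a transposase can insert. A peak is called opened where it was more accessible in GFP high than in GFP neg cells and closed where it was less accessible. The values used here are pooled over all libraries, so depth per library and the spread between mice are unknown and no test over samples could be made. In sorted bulk cells, a change in the share of cells with an open site and a change in its accessibility per cell cannot be told apart.

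Microtubules and neurofilaments give axons their shape, and growing axons extend by polymerizing tubulin behind a motile growth cone. Stathmins bind tubulin dimers and promote microtubule turnover, MAP2 and tau (*Mapt*) bind and stabilize the polymer, GAP43 sits at the membrane of the growth cone, and FEZ1 is an adaptor for kinesin transport. The neurofilament proteins and α-internexin (*Ina*) are intermediate filaments of neurons. Pulmonary neuroendocrine cells and SCLC cells share part of this neuronal program, and several of its genes have an RE1 element, the site bound by the transcriptional repressor REST.

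Of the 71 peaks of the 10 genes, 55 (77.5%) were closed and 16 (22.5%) were opened in GFP high cells. Among all listed peaks, 49.2% were closed and 50.8% were opened. Closed peaks outnumbered opened peaks at 7 of the 10 genes, beside 37.5% of all genes with a listed peak. At 4 of them (*Gap43*, *Nefl*, *Nefm* and *Ina*) every listed peak was closed, as at 21.7% of all genes with a listed peak, although *Ina* had 1 and *Nefl* 2 peaks. *Stmn3* and *Tubb3* had 1 closed and 1 opened peak each, and *Mapt* had more opened than closed peaks. A promoter peak, with its centre within 1 kb of a start site of the gene, was closed at 6 of the 10 genes (*Stmn2*, *Stmn3*, *Tubb3*, *Fez1*, *Nefm* and *Ina*), compared with 8.64% of all protein-coding genes. An opened promoter peak was listed for 1 gene, *Mapt*, compared with 28.6% of all protein-coding genes. In peaks, 8 of the 9 promoter peaks of the 10 genes were closed, whereas 25.7% of the 10358 listed promoter peaks were. *Gap43*, *Map2* and *Nefl* had no listed promoter peak. The lists hold differential peaks alone, so a promoter without one may be accessible to a like extent in both populations, closed in both, or different by less than the limits for listing.

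**Figure D1:**
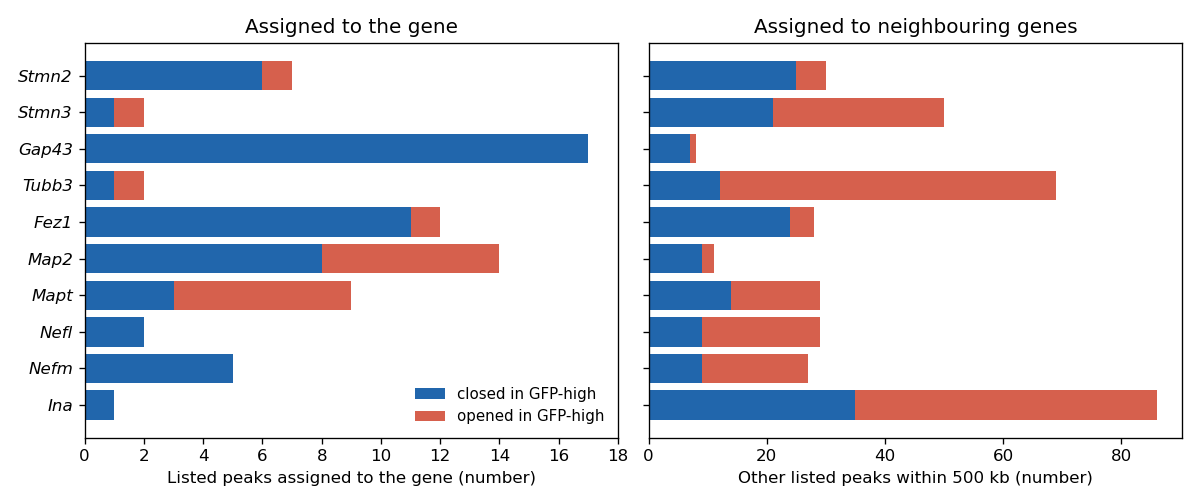
Number of listed peaks assigned to each of the 10 genes (left) and of other listed peaks within 500 kb of its first start site that were assigned to genes outside the group of 10 (right), both axes starting at 0, with closed peaks in blue and opened peaks in red. *Gap43* had 17 closed and 0 opened peaks, whereas *Mapt* had 3 closed and 6 opened peaks.

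Stathmin 2 (*Stmn2*, also known as SCG10) is a membrane-bound stathmin of growth cones. Its 7 peaks comprised 6 closed and 1 opened. A pair of small closed peaks flanked the start site at chr3:8509182-8509333, 102 bp upstream in intergenic sequence, and at chr3:8509441-8509579, 150 bp downstream in the untranslated part of an exon (all coordinates in mm10). Their mean normalized read counts, which the authors averaged over all libraries of both populations and which carry no direction, were 12.7 and 13.3. Both were lower than the median of 40.7 over all closed promoter peaks. The closed distal peak with the highest count lay in intergenic sequence 222 kb upstream at chr3:8287492-8287736 (24.1 mean normalized reads), next to a pair of other closed peaks between 223 and 224 kb upstream. The opened peak, at chr3:8266011-8266100, had 6.83 mean normalized reads and was among the lowest 2.57% of opened peaks by count.

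Stathmin 3 (*Stmn3*), a close relative of stathmin 2 that also promotes microtubule turnover, had a closed peak of 539 bp at chr2:181313842-181314380, centred in an intron 389 bp downstream of the start site, with 47.8 mean normalized reads. Its other peak, opened, was centred on a coding exon toward the 3′ end of the gene at chr2:181307193-181307387 (23.3 mean normalized reads). *Tubb3* encodes βIII-tubulin, a tubulin isotype that is widely used as a marker of neurons. A closed peak with 73.8 mean normalized reads covered its start site at chr8:123411339-123411658. The opened peak of *Tubb3* lay just past the end of the gene at chr8:123422354-123422743 (48.3 mean normalized reads), within the span of the read-through gene *Gm20388*, which overlaps *Tubb3*. At each of these genes the peak at the start was closed and the peak near or past the end was opened.

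MAP2 marks dendrites and cell bodies of neurons. *Map2* spans 267 kb and had 14 peaks, 8 closed and 6 opened, which were arranged by position. Each of the 5 peaks upstream of the gene, 29.9 to 73.7 kb from the start site, was opened, with 6.67 to 26.9 mean normalized reads. Within the gene, 8 of 9 peaks were closed. The closed peak with the highest count was intronic at chr1:66228052-66228568 (138 mean normalized reads), and the opened peak with the highest count was the upstream peak farthest from the gene, at chr1:66101498-66101813 (26.9 mean normalized reads). The closed peak nearest to a start site of *Map2*, at chr1:66177867-66178043, was 2.64 kb downstream in an intron and had 47.7 mean normalized reads. It fell outside the 1 kb limit for a promoter peak.

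Tau is the corresponding protein of axons, and *Mapt* was the gene with more opened than closed peaks. Its start site was covered by an opened peak of 585 bp at chr11:104230998-104231582 with 239 mean normalized reads, more than 89.9% of opened peaks and above the median of 169 over all opened promoter peaks. In total 6 of its 9 peaks were opened. The opened peak with the next highest count lay in an intron at chr11:104316792-104317358 (100 mean normalized reads). The 3 closed peaks were all intronic, and the one with the highest count was at chr11:104279629-104279866 (29.6 mean normalized reads), 2.63 kb upstream of an internal start site. *Mapt* lies on chromosome 11, where 71.1% of 5266 listed peaks were opened, compared with 50.8% of all listed peaks. Within 500 kb of its first start site, 14 of 29 listed peaks of genes outside the group were closed (48.3%), compared with 28.9% on the chromosome. The part of these surroundings in the peaks of *Mapt* was not tested.

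GAP43 is a protein kinase C substrate of growth cones and regenerating axons. *Gap43* had 17 peaks, the largest number among the 10 genes, and all were closed. Of the 957 genes with at least 17 peaks, 85 (8.88%) had closed peaks alone. None of the 17 lay at the start site of *Gap43*. There were 3 in introns of the gene, 71.3 to 85.2 kb downstream of the start, 12 beyond its end and 2 upstream. Of those beyond the end, 8 were in introns of the neighbouring gene *Lsamp*, which encodes a neuronal cell adhesion molecule, so their assignment to *Gap43* rests on distance to the nearest start site alone. The closed peak with the highest count among all 71 lay in intergenic sequence 150 kb downstream of the start of *Gap43*, at chr16:42190176-42190662. It had 377 mean normalized reads, more than 99.6% of all closed peaks, and a GC content of 62.6%.

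FEZ1, the mammalian counterpart of a nematode protein needed for axon bundling, is a kinesin adaptor. Of 12 peaks at *Fez1*, 11 were closed. The closed peak at the first start site of the transcripts used, which lies within the annotated span of the gene, chr9:36832546-36832956, had 145 mean normalized reads, the highest count of the 8 closed promoter peaks, and a smaller closed peak followed in an intron at chr9:36833579-36833785 (27.7 mean normalized reads). An exon of the neighbouring homeobox gene *Pknox2* held the closed peak with the highest count, at chr9:36895062-36895626 (162 mean normalized reads). The single opened peak was close to it, in an intron of *Pknox2* at chr9:36898606-36898883 (30.9 mean normalized reads). In all, 7 of the 12 peaks assigned to *Fez1* were in the body of *Pknox2*.

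Neurofilament light (*Nefl*) and medium (*Nefm*) chains are encoded by adjacent genes on chromosome 14, and α-internexin copolymerizes with them. All 8 peaks of these 3 genes were closed. *Nefm* had a closed peak over its start site at chr14:68124573-68125066 (53.3 mean normalized reads). A further closed peak was in an intron 1.14 kb downstream, and 3 others were intergenic, 74.2 to 176 kb upstream. The distal one with the highest count was at chr14:68299941-68300236 (24.9 mean normalized reads). For *Nefl* the 2 peaks were intergenic and upstream, and the one with the higher count was at chr14:68044827-68045057 (17.7 mean normalized reads). *Ina* had a single peak, centred 73 bp upstream of its start site at chr19:47014485-47014764 (32.3 mean normalized reads), within an annotated intron of *Nt5c2*. The neurofilament genes thus had closed peaks at 2 of 3 promoters.

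**Figure D2:**
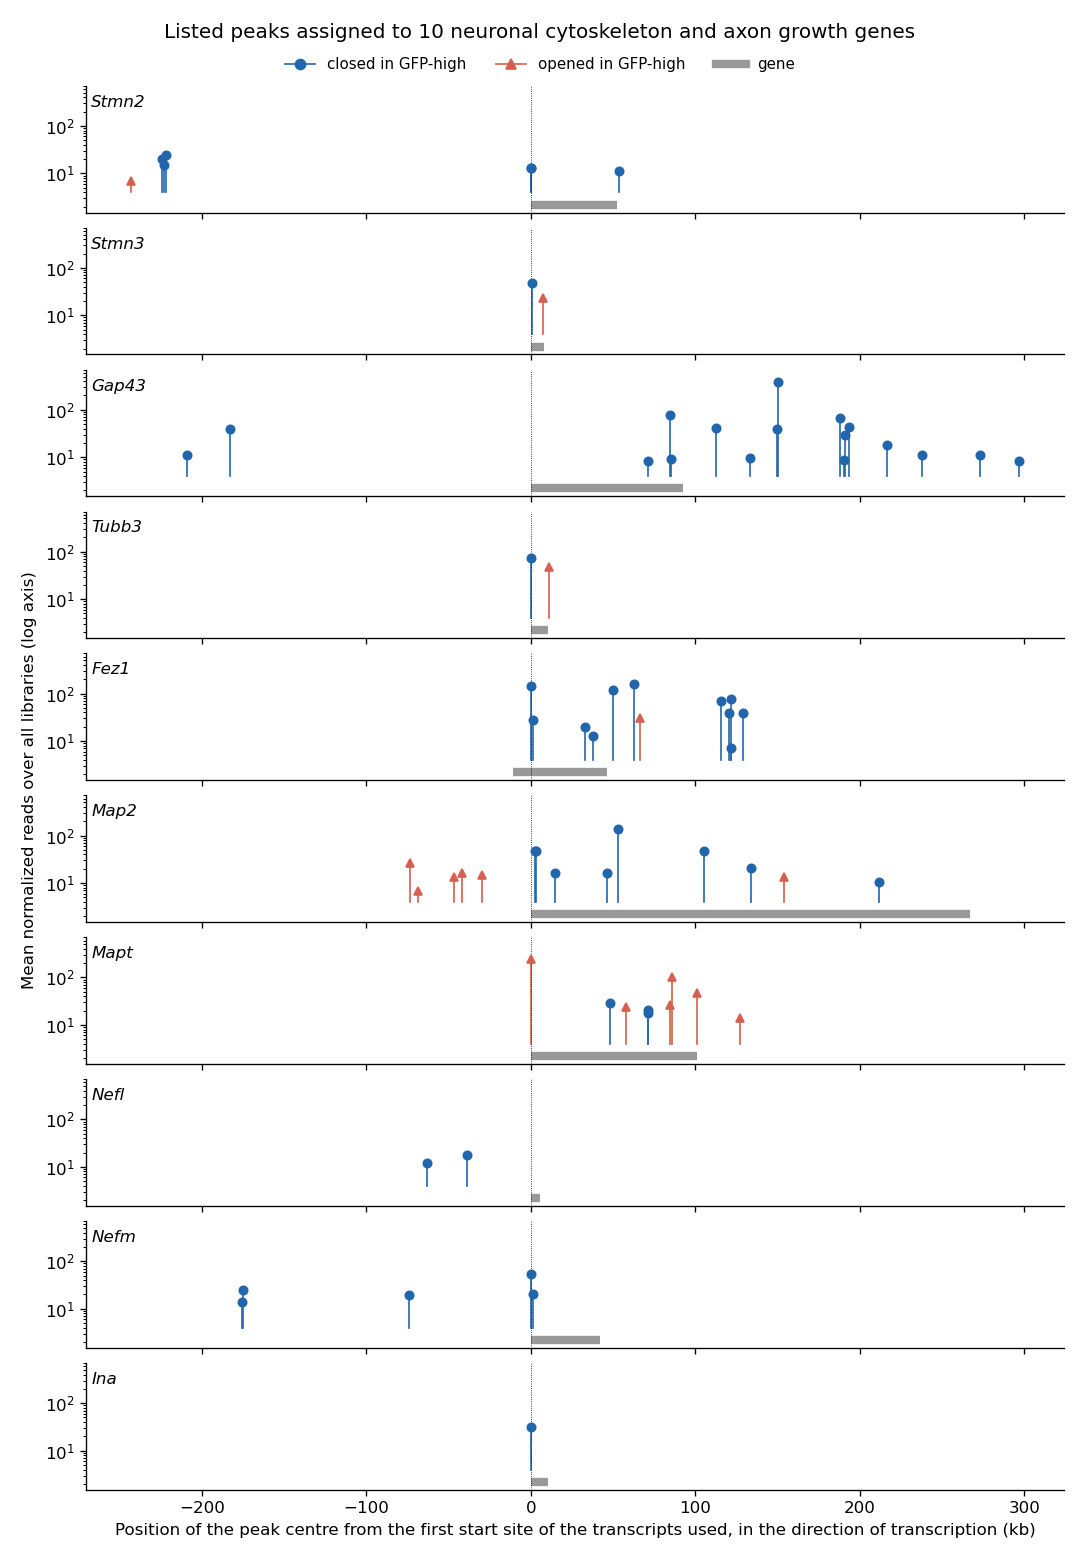
Position of each of the 71 listed peaks relative to the first start site of its gene among the transcripts used, in kb in the direction of transcription, against mean normalized reads over all libraries on a log axis, with 1 panel per gene, blue circles for closed peaks, red triangles for opened peaks and a grey bar for the annotated span of the gene. The 5 opened peaks upstream of *Map2* stand apart from the 8 closed peaks within it, and the 377-read peak beyond the end of *Gap43* is the highest.

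The closed peaks of the 10 genes had a median of 21.1 mean normalized reads (interquartile range 13.1 to 47.3), compared with 25.8 (14.8 to 49.9) over all closed peaks. The opened peaks had a median of 23.4 (13.8 to 34.9), compared with 40.7 (18.5 to 102) over all opened peaks. Median width was 224 bp for both the closed and the opened peaks of the 10 genes, whereas all closed peaks had a median of 248 bp and all opened peaks 300 bp. GC content was alike in closed peaks, with medians of 48.9% in those of the 10 genes and 48.9% in all closed peaks. In opened peaks the medians were 49.1% for the 10 genes and 51.1% for all opened peaks. The median distance of the closed peaks to a start site was 71.3 kb, compared with 42.4 kb over all closed peaks, but this order rested on *Gap43*, whose 17 closed peaks lay 71.3 to 297 kb away. Without it the median of the other 38 was 25.1 kb. For the opened peaks, none of which belonged to *Gap43*, the median distance was 38.4 kb, compared with 17.5 kb over all opened peaks. Of the 25 peaks more than 100 kb away 24 were closed, of which 14 were peaks of *Gap43* and 5 of *Fez1*, and 67.5% of all listed peaks that far away were closed. Of the 28 peaks within the gene they were assigned to, 23 were closed, compared with 47.2% of all listed peaks so placed. In the body of another gene 15 of 18 were closed (51% of all listed peaks there), and 17 of the 25 intergenic peaks were (50.9%).

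The direction of neighbouring chromatin differed between the genes. Listed peaks within 500 kb of the first start site that belonged to genes outside the group of 10 were mostly closed around *Gap43* (7 of 8), *Fez1* (24 of 28), *Stmn2* (25 of 30) and *Map2* (9 of 11). Around *Tubb3* they were mostly opened, with 12 of 69 closed (17.4%). Around *Nefm* 9 of 27 were closed, around *Nefl* 9 of 29, around *Ina* 35 of 86, around *Stmn3* 21 of 50 and around *Mapt* 14 of 29. The closed promoter peaks of *Tubb3*, *Nefm*, *Ina* and *Stmn3* therefore lay in regions in which the other listed peaks were more often opened than closed. The closed share around *Ina* (40.7%) and *Stmn3* (42%) was near that of all listed peaks on their chromosomes (39.7% and 46.5%). Around *Tubb3* (17.4%) and *Nefm* (33.3%) it was lower than on their chromosomes (50% and 51%). Around *Gap43* (87.5%), *Fez1* (85.7%), *Stmn2* (83.3%) and *Map2* (81.8%) it was higher than on their chromosomes (54.1%, 43.5%, 58.3% and 50.8%). These genes had 17, 11, 6 and 8 closed peaks of their own, so many of the closed peaks lay in regions with mostly closed neighbours. The part of the regions in the closed share of the 10 genes was not tested.

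Short motifs were searched as exact letters on both strands and are given as descriptions of sequence, since a match is not evidence of binding. The E-box CAGCTG was in 20 of 55 closed peaks (36.4%) of the 10 genes and in 27.6% of all closed peaks. *Gap43* accounted for 10 of these 20, and without it the share was 26.3% (10 of 38). The NFI half-site TTGGCA was in 15 closed peaks (27.3%, compared with 17.1% of all closed peaks), and the GC box GGGCGG in 12 (21.8%, compared with 9.51%). Of the 15 peaks with the NFI half-site, 5 were peaks of *Gap43* and 6 of *Fez1*, so most came from these genes. Of the 12 with a GC box, 3 were peaks of *Gap43* and 3 of *Fez1*. Shares below those of all closed peaks were found for 4 strings. The E-box CAGGTG was in 12 (21.8%, compared with 34.6%), the AP-1 string TGAGTCA in 10 (18.2%, compared with 24.1%), the TEAD string CATTCC in 2 (3.64%, compared with 12%) and the FOX string TGTTTAC in 5 (9.09%, compared with 11.4%). The RBPJ string TGGGAA was in 13 (23.6%, compared with 21.5%) and the E-box CATATG in 5 (9.09%, compared with 5.35%). Without *Gap43*, the FOX share was 13.2% and the RBPJ share 21.1%, so that for these strings, as for CAGCTG, the order relative to all closed peaks turned, and the CAGGTG share was 31.6%. The 16 opened peaks included 6 of *Map2* and 6 of *Mapt*, so their motif shares rest mostly on these genes. Among the 16, TEAD strings were in 6 (37.5%, compared with 25.4% of all opened peaks), RBPJ strings in 6 (37.5%, compared with 30.6%) and AP-1 strings in 4 (25%, compared with 12%). CAGCTG was in 4 (25%, compared with 19.8%) and the FOX string in 2 (12.5%, compared with 9.5%). Lower shares than in all opened peaks were found for CAGGTG (4 peaks, 25% compared with 26.6%), the NFI half-site (3 peaks, 18.8% compared with 24.7%), the GC box (3 peaks, 18.8% compared with 22.7%) and CATATG (0 peaks, compared with 3.26%). In the central 200 bp of the peaks the order turned for 2 strings, with CAGGTG in 25% of the opened peaks of the 10 genes and in 15.3% of all opened peaks, and RBPJ in 14.5% of the closed peaks and in 14.6% of all closed peaks. The letters GGAA are shared by the RBPJ string and the reverse complement of the TEAD string, so 1 stretch can count for both.

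RE1-like sequences were searched with the 20-letter REST consensus of the motif collection used in the study, on both strands and with at most 4 mismatches. Of the 71 peaks 1 held such a match, beside 0.21% of all closed and 0.272% of all opened peaks. It was the closed promoter peak of *Stmn3*, with 3 mismatches. After the values were seen, the search was widened to 5 kb on either side of every start site. At most 2 mismatches were then found at 3 of the 10 genes (*Stmn2*, *Nefm* and *Ina*), compared with 0.392% of 21911 genes. With at most 4 mismatches, 7 of the 10 genes had a match (also *Stmn3*, *Tubb3*, *Mapt* and *Nefl*), compared with 4.36% of all genes and 10.3% of genes with a closed promoter peak. *Stmn2* is one of the genes in which the RE1 element was first described and a match there is therefore background knowledge. These 4 best matches are shown 5′ to 3′ on the strand that matches the consensus, because they place the element relative to the listed peaks, with capitals for letters that match the consensus and lower case for mismatches.
*Stmn2*, chr3:8508231-8508250, minus strand, 1.12 kb upstream of the start site: aGCGCTGTCCgTGGTGCTGA
*Nefm*, chr14:68125725-68125744, minus strand, 889 bp upstream of the start site: GGCGCTGTCCtTGGTGCTGc
*Ina*, chr19:47016675-47016694, plus strand, 1.99 kb downstream of the start site: GGCGCTGTCCgaGGTGCTGA
*Stmn3*, chr2:181314201-181314220, plus strand, 289 bp downstream of the start site: GGtGCTGgCCATGGTGCTGg

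The match at *Stmn3* lay inside the closed peak, in the untranslated part of an exon. The match at *Stmn2* was 931 bp from the nearest listed peak, the closed promoter peak, and the match at *Nefm* was 658 bp from its closed promoter peak. At *Ina* the match was in an intron and inside an opened peak at chr19:47016625-47016758 with 13.6 mean normalized reads. That peak was assigned to *Nt5c2*, because a start site of *Nt5c2* was nearer, and is not among the 71. It was singled out after its values were seen. *Ina* thus had a closed peak at its start site and an opened peak over the RE1-like match 1.99 kb downstream. Across all listed peaks, 31 opened and 11 closed peaks held a match with at most 2 mismatches.

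**Figure D3:**
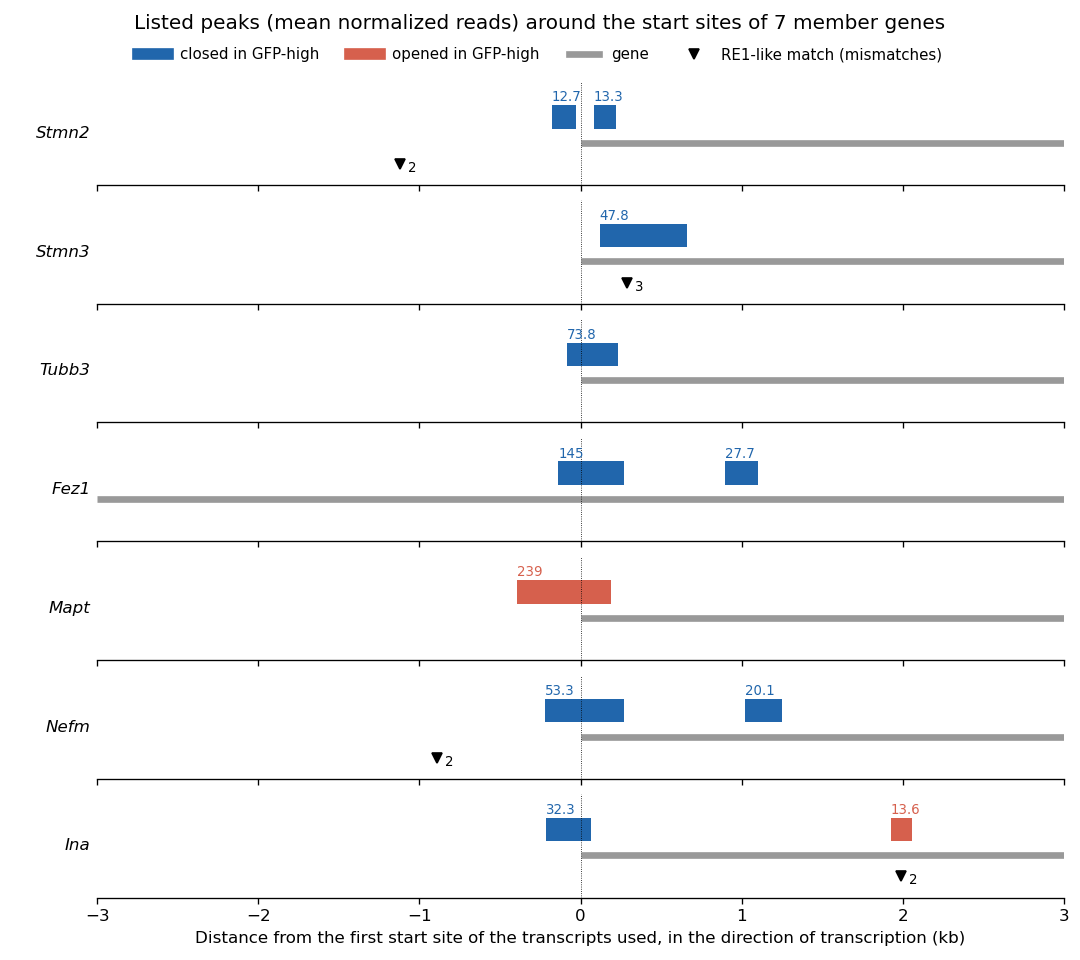
Listed peaks within 3 kb of the first start site of the 7 genes with a listed promoter peak, with distance in kb in the direction of transcription, blue bars for closed and red bars for opened peaks drawn to scale, the mean normalized reads above each bar, a grey line for the annotated gene and black triangles for RE1-like matches with their number of mismatches. The matches at *Stmn2* and *Nefm* lie upstream of the closed peaks, that of *Stmn3* lies within one, and that of *Ina* lies within an opened peak.

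Promoter sequence differed between the genes with a listed promoter peak. The part of the peak upstream of the start site is shown for 5 of them on the coding strand, in lower case with capitals for matches to any of the 9 short motifs; that of *Mapt* is limited to the 300 bases next to the start site. The peak of *Stmn3* has no such part, because it lies downstream of the start site. GC content was 75.7% in the stretch of *Mapt*, 72.3% in that of *Ina* and 67.1% in that of *Tubb3*. It was 52% in that of *Stmn2* and 46.4% in that of *Fez1*, although the whole *Fez1* peak at the first start site had 62.3%. The stretch of *Nefm* is not shown here. Its whole closed promoter peak had a GC content of 71.5% and held the E-box CAGCTG and a GC box. Of the 5 stretches shown, those of *Tubb3*, *Ina* and *Mapt* held a GC box, that of *Ina* the E-box CAGCTG, that of *Fez1* the RBPJ string and that of *Mapt* the TEAD string. For windows of 1 length, RefSeq promoters of 300 bases (GRCm38.p6) were searched, of which 7 belonged to 5 of the 10 genes (*Stmn3*, *Tubb3*, *Fez1*, *Map2* and *Ina*). A GC box was in 4 of the 7 (*Fez1*, *Ina*, *Map2* and *Tubb3*) and in 35.7% of all 32851 windows. The E-box CAGCTG was in 2 (*Fez1* and *Ina*; 16.3% of all windows), the RBPJ string in 3 (*Fez1* and *Ina*; 25.6%), the TEAD string in 3 (*Fez1*, *Ina* and *Stmn3*; 14.7%) and the NFI half-site in 1 (*Fez1*; 14.1%). The other 4 strings were in 0 of the 7 and in 20.2% (CAGGTG), 5.2% (AP-1), 3.91% (CATATG) and 3.65% (FOX) of all windows. The *Tubb3* and *Ina* stretches lie within introns of *Gm20388* and *Nt5c2*, that of *Fez1* lies within the annotated span of the gene, ahead of the first exon of the transcripts used, and the others are intergenic.
*Stmn2*, chr3:8509182-8509333, plus strand, closed: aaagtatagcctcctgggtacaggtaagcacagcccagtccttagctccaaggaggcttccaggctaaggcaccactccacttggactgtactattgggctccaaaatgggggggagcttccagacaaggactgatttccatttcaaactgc
*Tubb3*, chr8:123411339-123411423, plus strand, closed: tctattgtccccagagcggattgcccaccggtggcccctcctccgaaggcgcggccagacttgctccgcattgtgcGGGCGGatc
*Fez1*, chr9:36832546-36832683, plus strand, closed: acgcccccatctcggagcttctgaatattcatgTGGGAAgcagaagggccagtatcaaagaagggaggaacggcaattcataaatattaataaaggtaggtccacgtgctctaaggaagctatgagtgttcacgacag
*Ina*, chr19:47014485-47014697, plus strand, closed: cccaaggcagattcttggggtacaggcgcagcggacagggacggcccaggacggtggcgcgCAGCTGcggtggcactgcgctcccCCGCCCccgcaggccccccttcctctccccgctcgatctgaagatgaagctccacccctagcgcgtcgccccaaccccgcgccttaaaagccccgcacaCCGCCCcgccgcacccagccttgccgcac
*Mapt*, chr11:104231090-104231389, plus strand, opened: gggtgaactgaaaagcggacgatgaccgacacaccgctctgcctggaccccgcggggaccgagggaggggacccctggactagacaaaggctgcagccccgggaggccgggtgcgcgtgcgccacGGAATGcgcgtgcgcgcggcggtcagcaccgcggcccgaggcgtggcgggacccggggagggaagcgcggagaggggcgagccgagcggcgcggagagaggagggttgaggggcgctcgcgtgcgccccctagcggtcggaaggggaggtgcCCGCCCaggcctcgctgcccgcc

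A list of 40 other neuronal cytoskeleton and axon growth genes was examined in the same way. There were 335 listed peaks at 37 of them, of which 207 (61.8%) were closed, and *Nefh*, *Prph* and *Kif5a* had none. A closed peak was centred within 1 kb of a start site at 17 of the 40 genes, compared with 8.64% of all protein-coding genes. An opened one was found at 8 of the 40, compared with 28.6% of all protein-coding genes, and *Dclk1* had both. The 17 include *Tuba1a*, where the closed peak was assigned to a nearer start site of another gene and is not among the 335. Over all listed promoter peaks, the median was 169 mean normalized reads in opened and 40.7 in closed ones. A ranking by count therefore favours opened promoter peaks. Of the 12 genes with the highest counts at a promoter peak, 8 had their highest peak opened. These were the ubiquitous stathmin *Stmn1* (556 mean normalized reads), the collapsin response mediators *Dpysl2* (497) and *Dpysl5* (195), the α-tubulin *Tuba1b* (484), the CDK5 activator *Cdk5r1* (441), ankyrin G (*Ank3*, 328), the actin regulator *Marcksl1* (205) and the microtubule-binding kinase *Dclk1* (177). The 4 with a closed peak were the growth cone protein *Basp1* (174), ankyrin B (*Ank2*, 157), the neuronal ubiquitin hydrolase *Uchl1* (149) and the β-tubulin *Tubb4a* (147). Among the stathmins the direction at promoters differed, since *Stmn2*, *Stmn3* and *Stmn4* had closed promoter peaks and *Stmn1* an opened one. Among the β-tubulins, *Tubb3*, *Tubb2b* and *Tubb4a* had closed promoter peaks, and *Tubb2a* had no listed one.

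Marker genes of the sorted populations and of other cell types were examined in the same way. They are a description and no independent check on the labels, since the lists were chosen with earlier results of these data known. Over all protein-coding genes, 8.64% had a closed promoter peak and 28.6% an opened one. The 12 NE markers had 72 of 84 peaks closed (85.7%). Of these genes 9 had a closed promoter peak and 0 an opened one, with the highest count at *Scg3* (276 mean normalized reads), and *Syp* and *Dll3* had no listed peak. Going the other way, the single peak of *Bex2* was opened, and *Chga* had 8 opened and 6 closed peaks. All 8 genes of the list of club cell and Notch pathway genes had an opened promoter peak and 0 had a closed one, and 75 of their 95 peaks were opened (78.9%). Among them were *Hes1* (236 mean normalized reads), whose promoter drives the reporter used in the sort, and *Rest* (280). Other neuronal genes, which encode synaptic, transmitter and nuclear proteins, had 50 of 55 peaks closed (90.9%). Promoter peaks were closed at 4 of these 8 genes, with the highest count at *Syt1* (563 mean normalized reads), and opened at 1, *Slc17a7* (67.7), while *Gad2* had no listed peak. Glial and Schwann cell genes had 15 of 29 peaks closed. Leukocyte genes had 7 of 21 peaks closed, with *Cd68* (45.9) opened at the promoter. Endothelial genes had 45 of 60 peaks closed (75%), of which *Cdh5* gave 23 closed of 25, with *Tek* (15.5) closed and *Kdr* (228) opened at the promoter. Fibroblast genes had 13 of 23 peaks closed, with *Col1a2* (11.4) closed and *Col1a1* (83.4) opened at the promoter and no listed peak at *Pdgfrb* or *Lum*. CD31-positive and CD45-positive cells were removed in the sort. The part of other cell types in the peaks of the 10 genes was not tested.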

How the data were processed

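ATAC-seq was analysed for GFP high and GFP neg cells, with 16 sequencing runs of 8 libraries (4 per group). Per the study's methods and the labels, the authors trimmed the reads, aligned them to mm10 with Bowtie2 (2.3.4.1), removed duplicates, called narrow peaks with MACS2 with settings that shift and extend the reads around the transposase insertion, merged the peaks of all libraries, counted reads per peak and tested the peaks with DESeq2 (1.28.1). They kept peaks with adjusted p below 0.001 and an absolute log2 fold change above 1, and all 80367 listed peaks were found to lie within both limits. How lanes and the technical replicate entered the fit is not given in the sources used here. The deposited signal is the authors' mean of normalized reads per peak over all libraries (pooled, so with no SD or n). Fold changes, their standard errors, test statistics and p-values of the authors' comparison are also in the lists and were not used, apart from the check of the limits, so direction came from the list a peak was in.

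Depth per library is unknown. Peak centres were assigned to the nearest start site of protein-coding genes (GENCODE M21 basic set), and gene spans were taken from the same annotation. Sequences were read from GRCm38.p6, and RefSeq promoter windows were matched for 5 of the 10 genes. Python 3.11.15, pandas 2.3.3, numpy 2.4.6, pysam 0.24.0, statsmodels 0.14.6 and matplotlib 3.10.9 were used, and the assignment and the motif search were tested on planted data. All 10 genes were named, with every promoter peak. Of their other peaks, the closed and the opened one with the highest mean normalized count were named. Of the other list, at most 12 genes were given with counts, in order of the highest promoter count. Further genes of that list were named without counts, as genes with no listed peak, as stathmins or tubulins. Other peaks named were chosen after their values were seen. The members and lists were chosen with earlier results of these data known. Alternatives concerned the distance to the start site, the gene body, the transcripts used, merging of peaks, base pairs in place of peaks, a minimum of 30 mean normalized reads, distal peaks, each gene left out, the promoter width and the motif window. A promoter sequence and the values of some marker genes are not reported here.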

Additional observations from a re-analysis of the deposited data

How the results depend on the processing

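The share of closed peaks at the 10 genes stayed between 67.4% and 83.9% under 19 alternatives, compared with 77.5% in the report (95% Wilson interval 66.5% to 85.6%, for counting error only, since peaks of 1 gene are not independent). It was lowest with peaks at most 100 kb from the start site, where 44.3% of all listed peaks were closed. Leaving out 1 gene at a time gave 70.4% (without *Gap43*) to 83.9% (without *Mapt*). Leaving out peaks in the body of another gene gave 75.5%, and weighting the genes equally gave 76.8%; both were chosen after seeing the data. The number of genes with a closed promoter peak was 8 with a promoter of 3 kb (13.3% of all protein-coding genes), 4 where the peak had to overlap a start site (4.72%) and 5 with at least 30 mean normalized reads (6.26%), compared with 6 (8.64%). The RE1-like match in 1 peak was lost both when the central 200 bp were searched and with at most 2 mismatches, which left 0 peaks. By construction both settings are narrower. Of 35 alternatives, 33 were within the interval or within 1.5 times the reported value, and the 2 others were those of the RE1-like match. This tally is a weak check, because the alternatives largely reuse the same peaks and the interval treats peaks as independent. For motifs it compared counts of peaks and not the order relative to all peaks. That order turned in the central 200 bp for CAGGTG in opened and RBPJ in closed peaks. No paired analysis was possible because the lists hold no values per library. Small peaks, such as those at the start of *Stmn2*, rest on few reads.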

Other observations

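At *Fez1*, the closed peak with 162 mean normalized reads and the opened peak with 30.9 are both in *Pknox2*, 51.7 and 55.1 kb downstream of the same start site. The opened peak in the intron of *Ina* that holds the RE1-like match is on the same gene as the closed promoter peak. Of the 7 among the 10 genes with an RE1-like match of at most 4 mismatches within 5 kb of a start site, *Stmn2*, *Stmn3*, *Tubb3*, *Nefm* and *Ina* had a closed promoter peak, *Mapt* had an opened one and *Nefl* had none listed. The match at *Mapt* lay 656 bp upstream of an internal start site, away from the opened promoter peak, and the nearest listed peak was closed and 1848 bp away. Such a match was present at 10.3% of all genes with a closed promoter peak and at 4.43% of those with an opened one.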
